A study of Mus musculus with 51 samples.

Results

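Chaperones and heat-shock proteins fold new proteins, refold damaged ones and hold unfolded chains apart. Their genes were followed here in sorted mouse blood progenitors. Members were genes whose symbol begins with Hspa, Hspb, Hspd, Hspe, Hsph, Hsp90, Dnaja, Dnajb or Dnajc, together with the 8 chaperonin genes Tcp1, Cct2, Cct3, Cct4, Cct5, Cct6a, Cct7 and Cct8. That rule found 80 of the 18193 genes measured. Each gene is represented by its probe set (a group of array probes read out as 1 value) with the highest mean over the 51 arrays. The members comprise 27 DNAJC, 13 DNAJB and 4 DNAJA genes, 13 HSP70 genes, 8 chaperonin genes, 7 small heat-shock protein genes, 2 HSP90 genes, the HSP60 and HSP10 pair, 1 HSP110 gene and 3 genes that carry an Hsp name without being chaperones of these families. Hsp90ab1 and Dnajc19 were not analysed here.

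In the cytosol, HSP70 proteins bind exposed stretches of unfolded chains, J-domain proteins (DNAJA, DNAJB and DNAJC) bring them their clients, and HSP110 releases the spent nucleotide. HSP90 finishes kinases, receptors and other signalling proteins, and the TRiC chaperonin, a ring of 8 different subunits, folds actin, tubulin and many cell-cycle proteins. Mitochondria have their own HSP70 (Hspa9), HSP60 (Hspd1) and HSP10 (Hspe1), and the endoplasmic reticulum has Hspa5 and Hsp90b1. Heat-shock factor 1 switches on the inducible members, such as Hspa1a, Hspa1b, Hsph1 and Dnajb1, through repeats of a short DNA unit, the heat-shock element.

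The series profiled 4 populations sorted by flow cytometry from the bone marrow of 2 genotypes, wild type and an Mll-AF9 knock-in, which places a leukaemia fusion gene at the Mll locus. Granulocyte-macrophage progenitors (GMP) numbered 5 wild-type and 4 Mll-AF9 replicates, common myeloid progenitors (CMP) 5 and 4, common lymphoid progenitors (CLP) 8 and 7, and haematopoietic stem cells (HSC) 5 and 5. The design asked which genes differ between each Mll-AF9 population and its wild-type counterpart. No treatment, age or zygosity is given in the sources used here. Nothing says whether replicates came from different animals, and every p reflects only the variation among the samples given, which may be technical. Every value below is a log2 RMA intensity, every difference is on that log2 scale, and a mean under 4.46 counts as background. A gene was called where limma's p, adjusted by Benjamini-Hochberg over all 18193 genes, was below 0.05. In sorted bulk samples, fewer cells of a type and less RNA per cell cannot be told apart.

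Marker lists set GMP and CMP apart from each other: the GMP list averaged 12.1 to 12.9 in replicates of wild-type GMP and 8.20 to 9.59 in those of wild-type CMP, and the erythroid and megakaryocyte list 9.15 to 9.76 in wild-type CMP and 5.97 to 6.82 in wild-type GMP. The HSC list did not separate HSC from CLP, averaging 7.35 to 8.37 in wild-type HSC and 6.60 to 8.55 in wild-type CLP, while the CLP list averaged 7.26 to 9.03 in wild-type CLP and 6.36 to 6.87 in wild-type HSC. The 7 CLP samples of Mll-AF9, and the first of the 8 of wild type, are titled CLP but have a source name that reads CMP. They were kept under their titles, so every value of Mll-AF9 CLP below rests on the titles. In those 7 samples the CLP list averaged 7.39 to 9.01 and the erythroid and megakaryocyte list 5.91 to 8.49, where Mll-AF9 CMP had 4.84 to 5.34 and 9.47 to 9.61. Of the GMP, CMP, CLP and HSC lists, no marker was below background in its own population except 1 of 5 CLP markers in both genotypes and 1 of 4 HSC markers in wild-type HSC. Late erythroid markers were below background in every group. The difference between 3' and 5' control probe sets, which grows as RNA is shortened, was between 2.59 and 4.93 and highest in wild-type GMP replicate 1 (4.70) and in Mll-AF9 CLP replicates 1 (4.87) and 4 (4.93). Wild-type GMP replicate 1 stood apart for several members, and wild-type HSC replicate 1 was the lowest HSC replicate for several, as given beside those results. In Mll-AF9, CMP replicate 3 stood apart for 5 named members, CLP replicate 3 for 4 and HSC replicate 2 for 3, as given near the end. CMP values carry more decimals than the others, so those arrays may have been processed apart, and whether this has a part in comparisons of CMP with other populations was not tested. Y-linked genes were at background in every Mll-AF9 replicate and high in some replicates of each wild-type group.

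Promoter sequence was read for 66 members from the RefSeq table of build GRCm38.p6, which gives 250 bases before to 50 after each recorded start. A run of 3 heat-shock units, GAANNTTCNNGAA or TTCNNGAANNTTC, lies in the promoters of 4 of these 66 members (6.06%), against 0.662% of all 27025 genes in the table. They are Hspd1, Hspe1, Hsph1 and Dnajb6. Hspd1 and Hspe1 are both counted for the same bases, read on opposite strands. A pair of units, GAANNTTC or TTCNNGAA (each reads as itself on the other strand, and each run of 3 contains pairs), lies in 19 of the 66 (28.8%) and in 17.0% of all genes. The stretches of the members on which the results below turn are shown, with the units in capitals. The first lies in the region that Hspe1 and Hspd1 share, the second before Hsph1, and the third before the stress-inducible Hspa1a.
Hspe1, chr1:55088034-55088101, plus strand: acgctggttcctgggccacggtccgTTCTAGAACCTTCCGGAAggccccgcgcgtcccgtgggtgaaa
Hsph1, chr5:149636337-149636394, minus strand: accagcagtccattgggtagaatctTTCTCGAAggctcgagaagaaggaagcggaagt
Hspa1a, chr17:34972228-34972285, minus strand: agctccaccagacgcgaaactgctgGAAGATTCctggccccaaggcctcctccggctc
The Hspe1 stretch covers bases −114 to −47 before its start. Hspd1, the gene of its HSP60 partner, has recorded starts on the opposite strand at −216 and 95 bases from the Hspe1 start. The Hsph1 stretch holds 1 pair, and its run of 3 lies after the recorded starts. The same 58 bases precede Hspa1b at chr17:34959310-34959367, also on the minus strand. A match describes these letters only and shows no binding.

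Mll-AF9 and wild-type cells did not differ in any member past the threshold. Of the 80 members, 0 were called in HSC (0.0495% of all genes), 0 in GMP (0.264%), 0 in CLP (0.346%) and 0 in CMP (0.418%). A count of 0 in 80 is near these small shares, so it says little about the members as a set. Without adjustment, a limma p below 0.05 was found for 8 members (GMP), 3 (CMP), 8 (CLP) and 6 (HSC), and the smallest adjusted p was 0.288, 0.162, 0.392 and 0.119. The 95% interval of the difference lay within a 2-fold change either way for 73 of 80 members in GMP, for 79 in CMP, for 74 in CLP and for 63 of the 80 in HSC. The genotype effect did not differ among the 4 populations past the threshold for any member either (limma F test, 0 of 80 members against 0.214% of all genes, smallest adjusted p = 0.48 for Hspb9). Of the major cytosolic chaperones, Hspa8, the constitutive HSP70, had genotype differences between −0.12 (GMP) and 0.01 (CMP). The chosen Hsp90aa1 probe set had differences between −0.14 (CLP) and 0.13 (HSC).

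**Figure D1:**
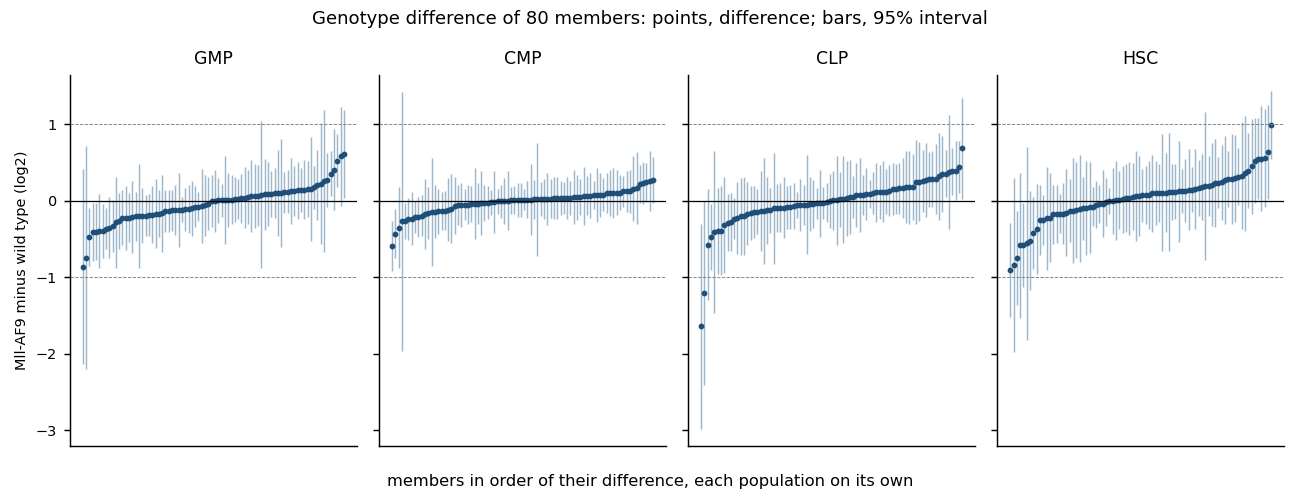
Difference between Mll-AF9 and wild type (vertical axis, log2) for the 80 members in each of 4 populations, ordered by size within each panel, with 95% intervals as bars and dashed lines at a 2-fold change. Most differences lie near 0, the bars are shortest in CMP (79 of 80 within 2-fold), and the lowest point in CLP is Hspa1b at −1.64.

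The member nearest to a genotype call was Hspa2, an HSP70 best known from the testis, in HSC. Wild-type HSC replicates had Hspa2 at 4.04, 3.87, 4.16, 4.18 and 4.30, and Mll-AF9 HSC at 5.10, 4.57, 4.98, 5.64 and 5.19. All 5 Mll-AF9 values lie above all 5 wild-type values, and the wild-type mean is background. The difference was 0.99 ± 0.21 (SE), which is at least 1.55-fold against the background level. Its limma adjusted p of 0.119 missed the threshold, and leaving out wild-type HSC replicate 1 or Mll-AF9 HSC replicate 2 gave 0.302 and 0.059. In the other populations the Hspa2 differences were 0.40 in GMP, 0.22 in CMP and 0.35 in CLP, none called. Hspb11, an intraflagellar transport gene despite its heat-shock name, was lower in Mll-AF9 in all 4 populations, with differences of −0.47 (GMP), −0.59 (CMP), −0.39 (CLP) and −0.59 (HSC), none called. In CMP the wild-type Hspb11 values were 6.87, 6.68, 6.55, 6.55 and 6.59 and the Mll-AF9 values 6.34, 6.05, 5.61 and 6.23, which do not overlap (limma adjusted p = 0.162). In Mll-AF9 HSC, replicate 2 had Hspb11 at 4.60 and the others at 6.76 to 7.50, inside the wild-type HSC range of 6.57 to 7.69. The sizes of the other leading differences were modest: Dnajb9, a J-protein of the endoplasmic reticulum, differed by 0.52 ± 0.16 (SE) in GMP (limma adjusted p = 0.288) and Dnajc3, another one, by −0.91 ± 0.29 in HSC (limma adjusted p = 0.547).

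The populations differed from each other in many members. Within wild type, 46 of 80 members (57.5%) differed among the 4 populations by limma's F test, where 51.7% of all genes did. Within Mll-AF9, 41 members (51.2%) did, against 44.6% of all genes. These shares are near the background, so they say little about the members as a set. By family, 7 of 8 chaperonin genes, both Hspd1 and Hspe1, Hsph1, 15 of 27 DNAJC, 8 of 13 DNAJB and 7 of 13 HSP70 genes passed in wild type, and neither HSP90 gene did. In the Mll-AF9 samples, which share none with wild type, the corresponding counts were 5 of 8, 2 of 2, 1 of 1, 15 of 27, 5 of 13 and 6 of 13, and 1 of the 2 HSP90 genes, Hsp90aa1, passed.

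**Figure D2:**
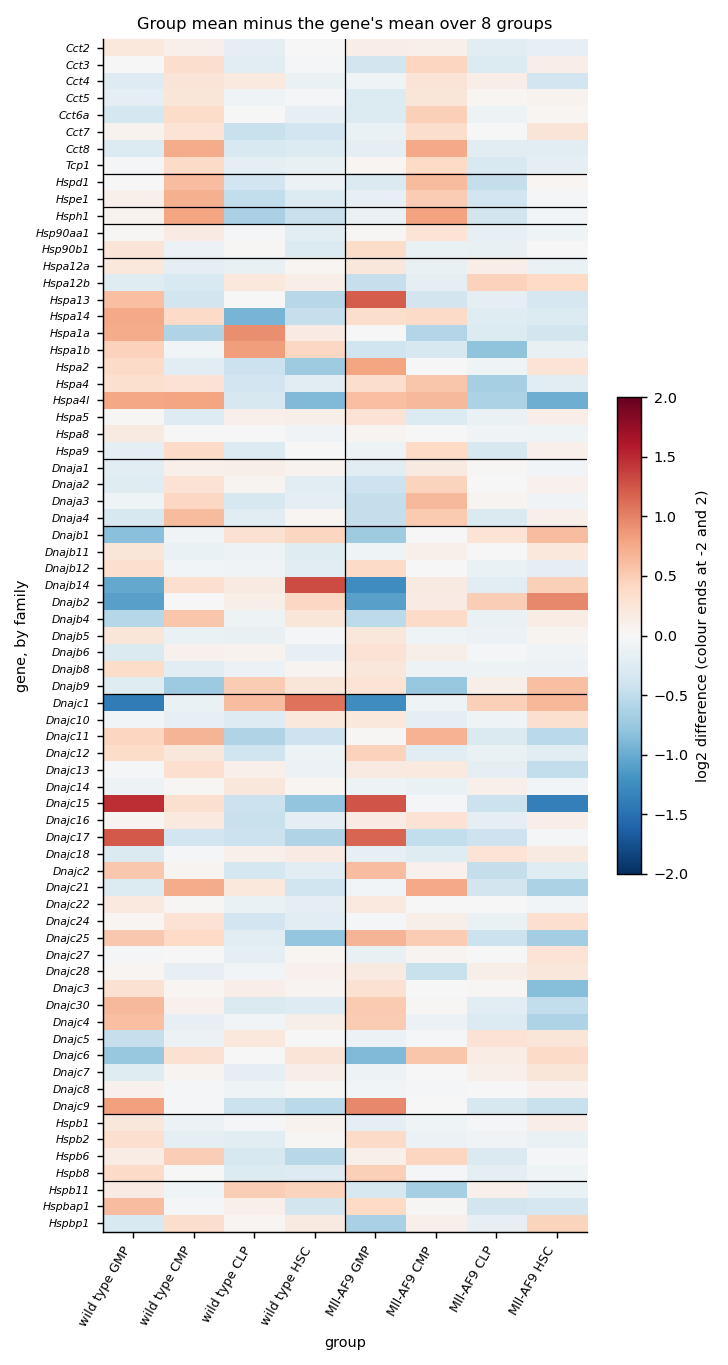
Group mean of each member minus its own mean over the 8 groups (colour, log2, cut at −2 and 2), for the 71 members above background in at least 1 group, by family (rows) and group (columns, wild type left, Mll-AF9 right). The CMP columns of both genotypes are red for the chaperonin, HSP60, HSP10 and HSP110 rows, and the GMP columns hold deep blue cells (Dnajc1, Dnajb14, Dnajb2) and deep red ones (Dnajc15, Dnajc17).

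Hsph1, Hspe1, Hspd1 and several chaperonin subunits were higher in CMP than in HSC. In wild type, 20 members differed between CMP and HSC, 17 higher and 3 lower, where 22.4% of all genes were called, 11.7% higher and 10.7% lower. Of the 17 higher, 6 were chaperonin genes and 3 were Hsph1, Hspe1 and Hspd1. In Mll-AF9, 15 members differed (20.9% of all genes), 12 higher (10.7%) and 3 lower (10.2%), with 3 chaperonin genes and Hsph1 among the higher. The 9 members higher in CMP in both genotypes, 52.9% of the wild-type list and 75% of the Mll-AF9 list, were Cct4, Cct8, Tcp1, Hsph1, Hspa4l, Dnajc11, Dnajc15, Dnajc21 and Dnajc25. For all genes these shares were 69.2% and 76.1%.

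Hsph1, the HSP110 exchange factor of HSP70, was at 10.39, 10.56, 10.64, 10.53 and 10.36 in wild-type CMP and at 8.70, 9.30, 9.29, 9.44 and 9.56 in wild-type HSC. Every CMP value exceeds every HSC value, by a mean of 1.24 ± 0.26 (SE), or 2.36-fold (limma adjusted p = 0.000355). In Mll-AF9, Hsph1 was at 10.58, 10.19, 10.55 and 10.72 in CMP and at 9.44, 9.32, 10.13, 9.94 and 9.43 in HSC, again without overlap (0.86 ± 0.28, SE, limma adjusted p = 0.0212). That Mll-AF9 call of Hsph1 was lost without CMP replicate 1 (0.84, limma adjusted p = 0.0529), CMP replicate 4 (0.79, limma adjusted p = 0.0732) or HSC replicate 2 (0.78, limma adjusted p = 0.0583). Wild-type CLP overlapped HSC in Hsph1, from 8.51 to 9.91 with a median of 8.83 over 8 replicates. In wild-type GMP the values spread from 8.49 to 10.70, and the lowest is replicate 1, the library with the high 3' to 5' difference.

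The mitochondrial pair followed. Hspe1 (HSP10), whose heat-shock units are printed above, was at 10.40, 10.60, 10.39, 10.84 and 10.38 in wild-type CMP and at 8.72, 9.47, 9.98, 9.72 and 9.80 in wild-type HSC. The groups do not overlap, and the difference was 0.99 ± 0.20 (SE), or 1.98-fold (limma adjusted p = 0.000186). Against wild-type CLP, where Hspe1 ran from 8.82 to 9.96, CMP were higher by 1.21 ± 0.18 (SE, limma adjusted p = 1.07e-06). Its partner Hspd1 (HSP60) was at 11.80, 11.88, 11.93, 11.83 and 11.74 in wild-type CMP and at 10.14, 11.13, 11.59, 11.15 and 11.46 in HSC, a difference of 0.74 ± 0.25 (SE, limma adjusted p = 0.0271) that was not called without CMP replicate 3 (0.72, limma adjusted p = 0.0544). In Mll-AF9, CMP exceeded HSC by 0.54 in Hspe1 and 0.59 in Hspd1, and neither was called (limma adjusted p = 0.0651 for Hspe1). Against Mll-AF9 CLP both passed, with 0.89 ± 0.20 (SE) for Hspe1 and 1.10 ± 0.25 for Hspd1.

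Of the chaperonin ring, Cct3, Cct4, Cct6a, Cct7, Cct8 and Tcp1 were higher in wild-type CMP than HSC, by 0.37 to 1.01. The list of 8 had a median difference of 0.46, where all genes had 0.01. Cct8 was at 10.29, 10.25, 10.22, 10.41 and 10.19 in wild-type CMP and at 8.38, 9.29, 9.82, 9.08 and 9.73 in HSC, 2.02-fold higher (limma adjusted p = 0.025). Cct3 was at 11.87, 11.84, 11.72, 11.67 and 11.72 against 11.08, 11.33, 11.60, 11.62 and 11.34, a smaller but non-overlapping difference of 0.37 ± 0.11 (SE, limma adjusted p = 0.00813). These calls lean on wild-type HSC replicate 1, the lowest HSC replicate for Cct8, Cct3, Tcp1, Hspd1, Hspe1 and Hsph1. Without it, only Cct4 of the 8 was called (6 with it), while Hsph1 (1.10, limma adjusted p = 0.0028) and Hspe1 (0.78, limma adjusted p = 0.00223) kept their calls and Hspd1 lost its own (0.50, limma adjusted p = 0.174). That replicate also had the lowest proliferation list of all 43, at 8.06, and a 3' to 5' difference of 4.35. In Mll-AF9 the calls were Cct4, Cct8 and Tcp1, and between 1 and 5 of the 8 over 22 alternative settings and left-out replicates.

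**Figure D3:**
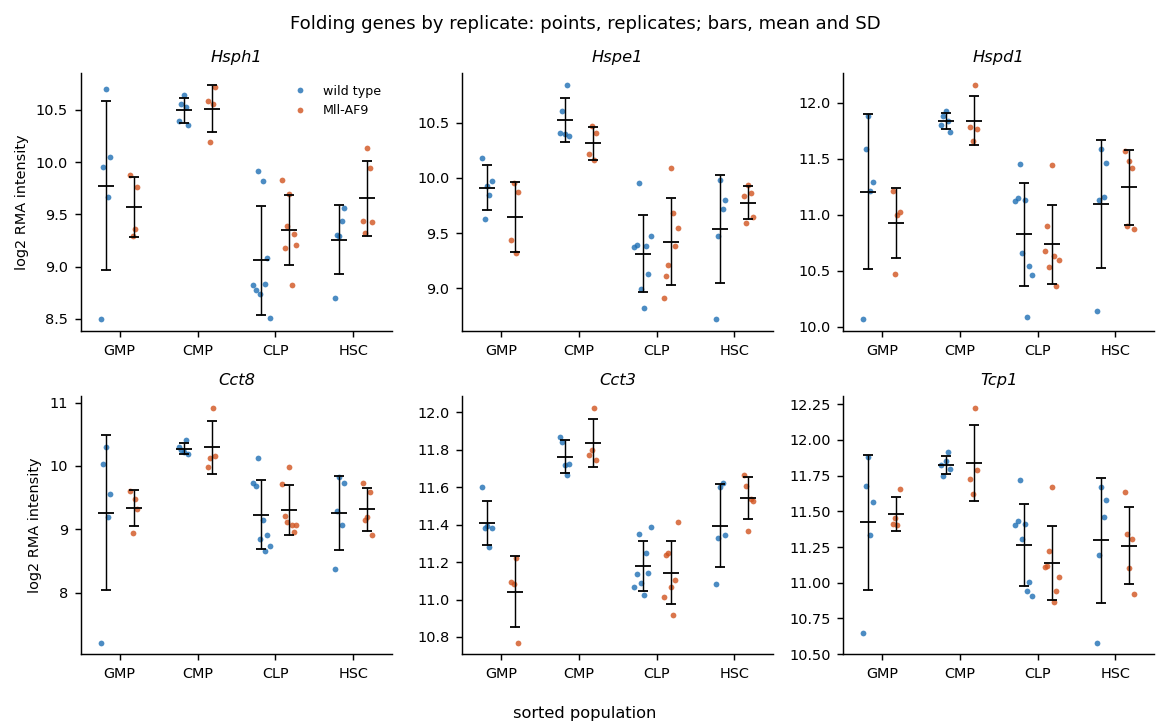
Log2 RMA intensity (vertical axes, which do not start at 0) of Hsph1, Hspe1, Hspd1, Cct8, Cct3 and Tcp1 by sorted population, with 1 point per replicate, wild type in blue and Mll-AF9 in orange, and bars for mean and SD. CMP have the highest mean in each panel in both genotypes, and the low points of Cct8 in wild-type GMP (7.22) and HSC (8.38) are replicate 1 of each.

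CMP also stood above the other progenitors, in comparisons added after the CMP pattern had been seen. Against wild-type GMP, 29 members differed (31.8% of all genes), 18 higher (11.5%) and 11 lower (20.3%) in CMP. Against Mll-AF9 GMP, 24 did (22.2%), 16 higher (8.62%) and 8 lower (13.6%). Against wild-type CLP, 27 members differed (23.7%), 22 higher (11.9%) and 5 lower (11.8%), and against Mll-AF9 CLP 20 did (20.3%), 16 higher (8.77%) and 4 lower (11.6%). Hsph1, Hspe1 and Hspd1 exceeded CLP in both genotypes in each of the 25 wild-type and 24 Mll-AF9 alternatives run. Against the other populations their calls held less often: over the alternatives, 0 to 3 of these 3 genes were called against wild-type GMP and 1 to 3 against Mll-AF9 GMP, 2 to 3 against wild-type HSC and 0 to 3 against Mll-AF9 HSC. Without wild-type CMP replicate 4 none of the 3 was called against wild-type GMP (Hsph1 0.71, limma adjusted p = 0.0533, and Hspe1 0.53, limma adjusted p = 0.0535). The Hsph1 call was also lost without wild-type CMP replicate 2, CMP replicate 3 or GMP replicate 4. Without Mll-AF9 CMP replicate 4 the calls of Hsph1 (0.87, limma adjusted p = 0.0504) and Hspe1 (0.63, limma adjusted p = 0.0633) against Mll-AF9 GMP were lost, and leaving out CMP replicates 2 or 3 or GMP replicates 1, 2 or 3 of Mll-AF9 lost 1 or 2 of the 3 calls. Cct3 was higher in CMP than in GMP and in CLP in both genotypes, by 0.36 and 0.58 in wild type and by 0.79 and 0.69 in Mll-AF9. Against wild-type GMP, the calls of Hsph1 (0.72), Cct8 (1.01) and Cct5 (0.43) were lost without GMP replicate 1, where the differences became 0.40, 0.50 and 0.37. Without Mll-AF9 CMP replicate 3, which had the highest proliferation list (10.02), 14 members in place of 24 were called against Mll-AF9 GMP and 13 in place of 20 against Mll-AF9 CLP.

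The proliferation list also had its highest mean in CMP in both genotypes, but in it GMP lay nearer to CMP than HSC did. Its means in wild type were 9.70 in CMP, 9.48 in GMP and 8.97 in HSC. In Mll-AF9 they were 9.75, 9.52 and 8.77. Its 18 measured genes averaged 9.58 to 9.75 in wild-type CMP, 9.12 to 9.64 in GMP, 8.89 to 9.76 in CLP and 8.06 to 9.66 in HSC, and in Mll-AF9 9.55 to 10.02 in CMP, 9.42 to 9.56 in GMP, 8.72 to 9.32 in CLP and 8.33 to 9.31 in HSC. Of the 18, 7 were higher (11.7% of all genes) and none lower (10.7%) in wild-type CMP than HSC. In Mll-AF9, 13 were higher (10.7% of all genes). The part of proliferation in the chaperonin and mitochondrial result was not tested.

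Members, among them J-domain proteins, which choose the clients of HSP70, were called in both directions between GMP and HSC, at a share near that of all genes. In wild type, 25 members differed, 18 higher and 7 lower in GMP (38.1% of all genes, 24.6% higher and 13.5% lower), and 16 of them were DNAJB or DNAJC genes. In Mll-AF9, 25 differed as well (32.8% of all genes), 16 higher and 9 lower (20.4% and 12.5%). Higher in GMP in both genotypes were 12 members, 66.7% of the wild-type list and 75% of the Mll-AF9 list, and 6 were lower in both, 85.7% and 66.7% of those lists. For all genes these shares were 60.3% and 72.9% among the higher and 67.9% and 73.4% among the lower. No chaperonin gene and neither Hspd1 nor Hspe1 was called between wild-type GMP and HSC. In Mll-AF9, Cct3 was called lower in GMP than in HSC, while its probe set of highest variance gave 0.17 (limma adjusted p = 0.799).

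Dnajc15, a J-protein of the inner mitochondrial membrane, had the largest difference upward. It was at 9.63, 9.04, 9.14, 9.07 and 9.17 in wild-type GMP, 8.18, 8.01, 7.79, 7.93 and 8.34 in CMP, 6.26 to 8.40 (median 7.43) in CLP and 6.68, 7.65, 6.74, 6.51 and 7.11 in HSC. The order is GMP, then CMP, then HSC with no overlap between these 3, and CLP overlap both CMP and HSC. GMP exceeded HSC by 2.27 ± 0.28 (SE), or 4.83-fold (limma adjusted p = 1.9e-08), and in Mll-AF9 by 2.63 ± 0.30, or 6.18-fold (limma adjusted p = 3.04e-09). In Mll-AF9 the GMP values were 8.98, 9.27, 8.87 and 8.81 and the HSC values 6.38, 6.27, 6.19, 6.19 and 6.75. Dnajc17, a J-protein tied to the spliceosome, was at 9.45 to 10.35 in wild-type GMP and at most 8.61 in CMP and HSC of that genotype (GMP minus HSC 1.83 ± 0.30, SE, limma adjusted p = 4.78e-06). Dnajc9, a histone chaperone as well as a J-protein, was higher in GMP by 1.36 in wild type and 1.41 in Mll-AF9. Leaving out wild-type HSC replicate 1, at 6.84 against 8.65 to 8.97 in the other 4, brought the wild-type value to 0.96 (limma adjusted p = 5.7e-05). Dnajc25 had 1.32 and 1.38, from levels near background in HSC.

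Hspa4l, an HSP110-related exchange factor, was as high in CMP as in GMP. In wild type it was at 7.18, 7.30, 7.38, 7.19 and 7.25 in GMP, 7.08, 7.16, 7.28, 7.48 and 7.33 in CMP, and 4.59, 5.27, 5.59, 6.26 and 6.30 in HSC. Both progenitors lie wholly above HSC, by 1.66 ± 0.30 (SE) for GMP (limma adjusted p = 2.7e-05) and 1.66 ± 0.30 for CMP (limma adjusted p = 4.37e-05). Mll-AF9 gave 1.58 and 1.63. Another Hspa4l probe set, 1439093_at, went the other way in GMP minus HSC, with −0.84 ± 0.28 (SE, limma adjusted p = 0.0178 over all probe sets) in Mll-AF9 and −0.47 (limma adjusted p = 0.161) in wild type.

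The members lower in GMP were led by Dnajc1, a J-protein anchored in the endoplasmic reticulum. It was at 7.02, 5.81, 5.87, 6.47 and 6.35 in wild-type GMP and at 8.85, 8.73, 8.93, 9.06 and 8.33 in HSC, 5.57-fold lower in GMP (−2.48 ± 0.28, SE, limma adjusted p = 2.67e-09). CMP lay between, at 7.47 to 7.67. Mll-AF9 gave −1.91 ± 0.30 (limma adjusted p = 2.35e-06), with GMP at 6.26, 7.35, 5.53 and 6.68 and HSC at 8.08 to 8.71. The direction belongs to this probe set: the Dnajc1 probe set with the highest variance gave 0.14 in wild type (limma adjusted p = 0.847) and 1.41 in Mll-AF9 (limma adjusted p = 0.032). Dnajb2, a J-protein that sorts clients for the proteasome, was at 4.62 to 4.93 in wild-type GMP, near background, and at 5.94 to 6.53 in HSC (−1.50 ± 0.34, SE, limma adjusted p = 0.000484), with −2.05 in Mll-AF9. Dnajb14 gave −2.33 and −1.72, and in Mll-AF9 HSC 1 replicate of 5 was at 3.64 while the others were at 6.65 to 7.23.

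Dnajb1, the inducible HSP40 partner of HSP70, was lowest in GMP and next lowest in CMP. It was at 10.35, 10.30, 10.56, 10.11 and 10.12 in wild-type GMP, 11.00, 11.08, 11.36, 10.95 and 10.83 in CMP, 11.21 to 11.62 (median 11.46) in CLP and 11.73, 11.67, 11.83, 11.67 and 10.90 in HSC. GMP lie below all other groups, and CMP overlap CLP and HSC at their edges, in HSC through replicate 5 alone. GMP were lower than HSC by −1.27 ± 0.15 (SE), or 2.42-fold (limma adjusted p = 5.71e-09), and in Mll-AF9 by −1.34 ± 0.16 (limma adjusted p = 8.22e-09). The immediate-early list holds 14 genes such as Fos and Egr1 that switch on within minutes of handling or signals. In both genotypes it also had its lowest mean in GMP and its next lowest in CMP. It ran from 7.59 to 8.10 over wild-type GMP, 8.86 to 9.46 over CMP, 9.82 to 10.9 over CLP and 8.53 to 11.1 over HSC. In Mll-AF9 it ran from 7.67 to 8.20 over GMP, 8.32 to 9.42 over CMP and 9.50 to 10.6 over HSC. Mll-AF9 CLP, at 7.96 to 10.7, overlapped all of these. Wild-type HSC replicate 5, the low replicate for Dnajb1, was also the lowest HSC replicate for this list, at 8.53. Of the 14 genes, 13 were lower in GMP than HSC in each genotype (13.5% of all genes in wild type, 12.5% in Mll-AF9). In CMP, 5 were lower than in HSC in wild type (10.7% of all genes) and 7 in Mll-AF9 (10.2%). The part of these genes' response in the Dnajb1 result was not tested.

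**Figure D4:**
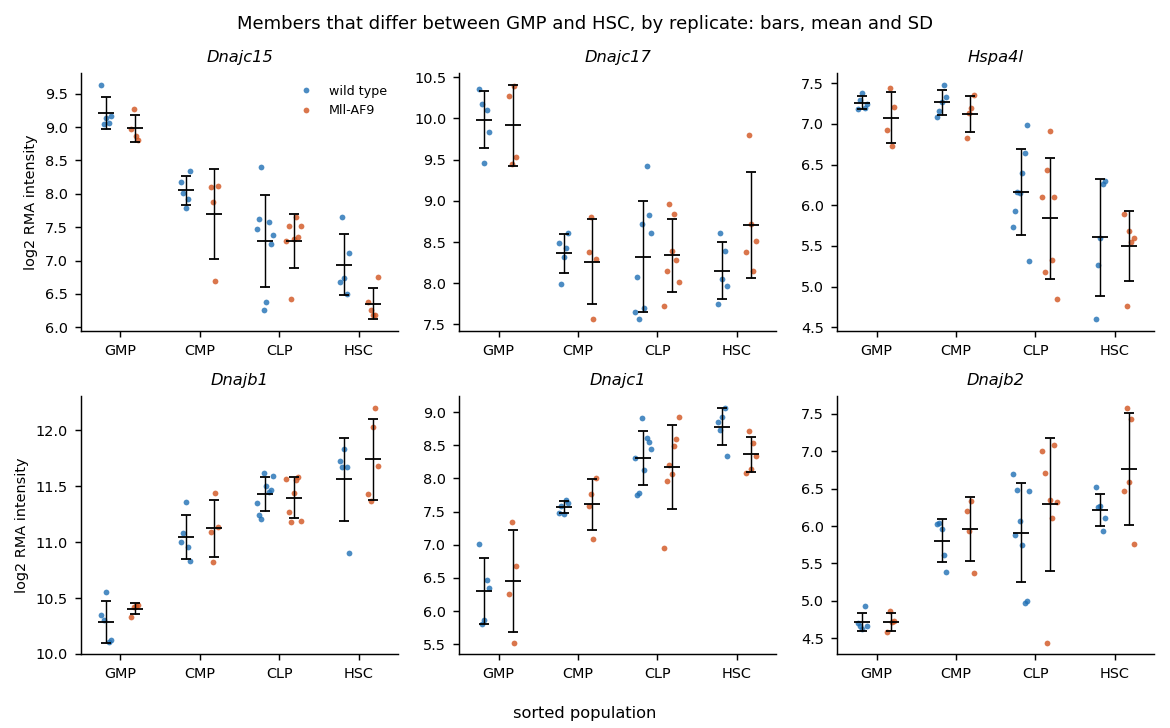
Log2 RMA intensity (vertical axes, which do not start at 0) of Dnajc15, Dnajc17, Hspa4l, Dnajb1, Dnajc1 and Dnajb2 by sorted population, with 1 point per replicate, wild type in blue and Mll-AF9 in orange, and bars for mean and SD. GMP are highest for the upper row, together with CMP for Hspa4l, and lowest for the lower row, at like levels in both genotypes.

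HSP90 differed by probe set between GMP and HSC. The brightest Hsp90aa1 probe set, 1438902_a_at, differed little between GMP and HSC: 11.83, 12.02, 11.97, 11.82 and 11.86 in wild-type GMP and 11.42, 11.71, 11.88, 11.57 and 11.67 in HSC (0.25 ± 0.13, SE, limma adjusted p = 0.14), while CMP exceeded HSC by 0.38 (limma adjusted p = 0.0321). The other bright Hsp90aa1 probe sets did not follow it. Probe set 1426645_at was at 7.24, 8.50, 9.35, 9.05 and 9.36 in wild-type GMP and 11.43, 11.85, 12.16, 11.59 and 11.94 in HSC, and 1437497_a_at at 7.49, 7.84, 8.74, 8.43 and 8.97 against 10.98, 11.15, 11.20, 10.99 and 10.96. In Mll-AF9 GMP, 1426645_at was at 8.32, 9.29, 7.73 and 9.23 and the HSC replicates at 11.54 to 11.82. On this probe set every GMP replicate of either genotype lies below every CMP, CLP and HSC replicate. Adjusted over all 34945 probe sets with 1 gene, GMP minus HSC was −3.10 ± 0.37 (SE, limma adjusted p = 1.27e-08) for 1426645_at in wild type and −3.03 ± 0.39 (limma adjusted p = 8.78e-08) in Mll-AF9, and −2.76 and −2.77 for 1437497_a_at. Which transcript parts these probe sets read is not given in the sources used here. Among the 39 members with more than 1 bright probe set in GMP and HSC, 5 in wild type (Dnajc1, Dnajc2, Dnajc5, Hspa13 and Hspa4) and 6 in Mll-AF9 (Dnajc1, Dnajc13, Dnajc5, Hspa13, Hspa4 and Hspa4l) had probe sets called in both directions. In CMP minus HSC, 0 of 40 did in either genotype.

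Of the chaperones of the endoplasmic reticulum, Hspa5 and Hsp90b1 were not called between GMP and HSC by their chosen probe sets, while Hspa13 was. Hspa5 (BiP), the HSP70 of that compartment, was at 9.999, 12.76, 13.01, 12.45 and 12.53 in wild-type GMP and at 12.58, 12.60, 12.09, 12.07 and 11.85 in HSC. Only GMP replicate 1 is low. The difference was −0.09 with that library and 0.45 (limma adjusted p = 0.0277) without it. Hsp90b1 (GRP94) behaved alike, at 8.07 in GMP replicate 1 and 9.57 to 10.24 in the other 4, with a difference of 0.54 (limma adjusted p = 0.135) and, without replicate 1, 0.90 (limma adjusted p = 0.0048). In Mll-AF9, where no GMP replicate stands apart, the differences were 0.17 for Hspa5 and 0.35 for Hsp90b1, neither called. Another Hspa5 probe set, 1447824_x_at, was higher in GMP by 1.32 ± 0.21 (SE) in wild type and 1.04 ± 0.22 in Mll-AF9 (limma adjusted p = 3.34e-06 and 0.000341 over all probe sets). Its suffix marks probes that may bind other transcripts too. The chosen probe sets of Cct2, Cct4, Hspa8 and Hspbap1 carry that suffix as well. Hspa13, a microsomal HSP70, was at 7.33, 8.86, 8.60, 8.55 and 8.50 in wild-type GMP and at 7.23, 6.92, 7.41, 6.71 and 7.78 in HSC (1.16 ± 0.22, SE, limma adjusted p = 4.54e-05). In Mll-AF9 it was higher by 1.55 ± 0.23 without overlap (limma adjusted p = 1.02e-06), although the Hspa13 probe set of highest variance gave −1.84 there. Dnajb9 was lowest in CMP, at 7.96 to 8.60 in wild type against 8.60 to 9.95 in HSC (−0.98 ± 0.31, SE, limma adjusted p = 0.016), with −1.37 in Mll-AF9.

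Other genes of the folding pathway, from lists that are not members, were also called higher in GMP or CMP than in HSC. Of all genes, 24.6% were higher in GMP than HSC in wild type and 20.4% in Mll-AF9, and 11.7% and 10.7% in CMP than HSC. Of 15 endoplasmic reticulum folding genes, 9 were higher and none lower in wild-type GMP than HSC, and 11 were higher in Mll-AF9 (medians 0.89 and 0.88). Sdf2l1, a subunit of the Dnajb11 and Hspa5 complex, had 2.501 and 1.95, and Hyou1, the exchange factor of Hspa5, 1.96 and 1.36. In CMP minus HSC, 1 of these 15 was higher and 1 lower in wild type. Of 12 HSP70 cochaperones, 7 were higher and none lower in both GMP and CMP of wild type, with Bag2 at 2.33 and Grpel1, the exchange factor of mitochondrial Hspa9, at 0.88 in CMP minus HSC. In Mll-AF9, 6 were higher in GMP and 2 in CMP. Prefoldin, which hands actin and tubulin to the chaperonin, had 4 of 6 genes higher in wild-type CMP and 3 in Mll-AF9. Of 13 measured HSP90 cochaperones, 5 were higher in wild-type CMP, among them Stip1 (0.64), Ahsa1 (0.69) and Fkbp4 (1.01), and 2 were higher and 2 lower in Mll-AF9. Of 6 mitochondrial folding and protease genes, 5 were higher in wild-type CMP and 4 in Mll-AF9. The 3 measured heat-shock factor genes, Hsf2, Hsf4 and Hsf5, had means below background in all 8 groups. Hsf1, the gene of heat-shock factor 1, was on the list but not among those measured. In none of the 4 populations was a gene of these lists called between Mll-AF9 and wild type.

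CLP and HSC were close to each other. In wild type 0 of 80 members were called (0.319% of all genes). In Mll-AF9, 3 were (3.73% of all genes), 2 higher (2.69%) and 1 lower (1.04%): Cct4 (0.52 ± 0.13, SE, limma adjusted p = 0.0149), Cct3 (−0.40 ± 0.10, limma adjusted p = 0.0152) and Dnajc15 (0.94 ± 0.26, limma adjusted p = 0.0307). With only the CLP and HSC samples in the fit, or with the 3' to 5' difference as a covariate, the count was 0, and without Mll-AF9 HSC replicate 2 or 4 it was 1. The F test of the genotype effect across populations called no member, as given above.

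Hspa1a and Hspa1b, which are induced by stress, varied most from replicate to replicate. Hspa1b and Hspa1a encode nearly the same HSP70 and share the promoter stretch printed above, so the array may not separate them. Their SD within groups was 1.41 and 1.11, the largest of the 80 members, and 0.104% and 0.236% of all genes had a larger one. The median over members was 0.34 and over all genes 0.32. Hspa1b was at 6.10, 7.12, 9.85, 6.41 and 6.40 in wild-type GMP, at 5.08, 6.21, 9.01, 6.59 and 6.42 in CMP, and at 6.02, 6.75, 8.14, 7.55 and 7.16 in HSC. In wild-type CLP it ran from 4.94 to 9.87 (median 7.83) and in Mll-AF9 CLP from 4.45 to 7.56 (median 5.89). Replicate 3 is the highest in each of these wild-type groups, and the highest Hspa1a values were in the same GMP (9.07), CMP (6.17), CLP (8.78) and HSC (5.99) replicates. In Mll-AF9, Hspa1b was at 5.69, 5.64, 7.01 and 6.90 in GMP, 5.45, 4.25, 7.64 and 8.22 in CMP and 5.36, 4.62, 8.18, 7.32 and 7.36 in HSC. All groups overlap. The genotype difference in CLP, −1.64 ± 0.64 (SE), missed the adjusted threshold (limma adjusted p = 0.428). The wild-type CMP minus CLP difference of Hspa1a, −1.53, passed it narrowly (limma adjusted p = 0.0481). That call was lost without CLP replicate 3 (−1.18, limma adjusted p = 0.124) or CMP replicate 4 (−1.45, limma adjusted p = 0.105). Apart from replicate 3, the wild-type CMP values of Hspa1a were around background, at 4.15 to 4.67.

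Across the 43 replicates, after each group's mean was taken out, Hspa1b went with Hspa1a (Pearson r = 0.79, Spearman rho = 0.79), Dnaja1 (0.65 and 0.65), Hsph1 (0.54 and 0.47), Dnaja2 (0.48 and 0.45), Dnajb1 (0.44 and 0.46) and Hspa5 (0.42 and 0.44). Dnaja1, Dnaja2 and Dnajb1 encode cytosolic J-domain partners of HSP70 and Hsph1 its exchange factor, while Hspa5 is the HSP70 of the endoplasmic reticulum. These are descriptions over replicates that share a library, given without a test. Without the pair of replicates farthest from the median the Pearson values were 0.74, 0.58, 0.44, 0.43, 0.47 and 0.32. With the immediate-early list Hspa1b had r = 0.20, with the proliferation list 0.16 and with the 3' to 5' difference −0.05. The 8 CMP replicates run on 2 arrays gave Hspa1b run differences of −0.05 to 0.71, far less than the span between CMP replicates. Some other members shifted the same way in all 8, second run minus first. Cct4 had a mean of 0.40 (0.18 to 0.76), where its wild-type CMP minus HSC difference was 0.38. Hsph1 had 0.23 (0.12 to 0.40), Dnajb1 0.29 (0.10 to 0.65), Dnajb9 0.45 (0.05 to 1.08) and Dnajc17 −0.77 (−1.04 to −0.39). Cct3 (0.02) and Cct8 (0.002) shifted little on average.

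**Figure D5:**
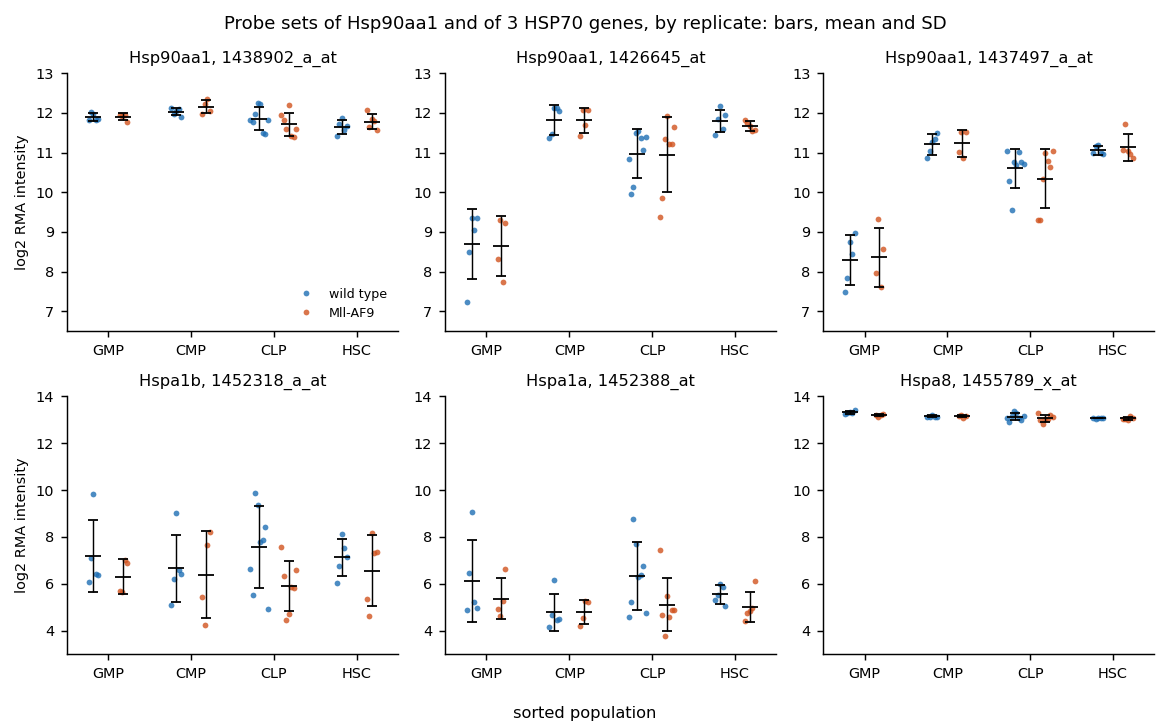
Log2 RMA intensity (vertical axes, which do not start at 0) by sorted population of 3 probe sets of Hsp90aa1 (upper row) and of Hspa1b, Hspa1a and Hspa8 (lower row), with 1 point per replicate, wild type in blue and Mll-AF9 in orange, and bars for mean and SD. GMP lie between 7.24 and 9.36 in the upper middle and right panels and near the other populations in the left one, and the points of Hspa1b and Hspa1a spread widely where those of Hspa8 do not.

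Small heat-shock proteins, which hold unfolded chains without using ATP, were dim. Of 7 genes, 4 were above background in at least 1 group. Hspb1 (HSP27) was at 5.02, 4.79, 5.30, 5.13 and 4.62 in wild-type GMP and 4.53, 4.90, 4.93, 5.25 and 4.52 in HSC. Hspb8 was higher in GMP than HSC in both genotypes (0.63 ± 0.15, SE, and 0.56 ± 0.16, limma adjusted p = 0.000708 and 0.00457), between means of 4.51 and 5.14 in wild type. Hspb6 was higher in wild-type CMP than HSC by 1.04, at least 1.59-fold, from a background level in HSC (limma adjusted p = 0.000993). It was not called between CMP and HSC in Mll-AF9. Between the 2 runs of a CMP replicate, Hspb6 differed by −1.41 to 0.13 (second minus first, mean −0.50). In all, 9 of the 80 members were below background in every group and 65 were above it in all 8.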

How the data were processed

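Each sample was total RNA from cells sorted into extraction buffer, amplified in a 2-cycle labelling reaction and hybridised to 1 Affymetrix array, per the labels' protocols. Each deposited file holds RMA intensities, per the submitters' processing notes, which name no version and do not say whether all 51 arrays went through RMA at once. Intensities were linear, and log2 was taken. Arrays have no depth, and their number limits the precision. The repeat runs of 8 CMP replicates were averaged, which left 43 replicates, and the highest correlation between 2 arrays was 0.993, with 0 identical arrays.

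Of 45101 probe sets, 64 controls were left out, 34945 named 1 gene, 932 several and 9160 none. 1 probe set per gene gave 18193 genes, and 52 of the 80 members had several. Background is the 95th percentile (4.46) of the means of 112 receptor and keratin-associated genes. A bound written "at least" raises each replicate of the dimmer group to that level.

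Limma 3.58.1 in R 4.3.3 (lmFit, eBayes with an intensity trend, 2-sided) was fitted per population for genotype and as 1 model of 8 group means for populations, without blocks. The code was tested on simulated data. Same-numbered replicates did not pair throughout. Of 20 pairs of wild type with Mll-AF9 within a population, 2 had a correlation of deviations over 0.1 (range −0.29 to 0.19). Of 55 pairs between populations of 1 genotype, 16 did (range −0.33 to 0.30), with every pair over 0.1 in 0 of 12 pairs of groups. In wild-type GMP with CMP, 4 of 5 pairs did (0.04 to 0.20), and in wild-type GMP with HSC 2 of 5 (0.04 to 0.16). Whether same-numbered samples share a source was not tested, and the main fits do not allow for it. Alternatives were other probe set rules, quantile normalisation, no trend, an intensity filter, covariates (3' to 5' difference, Y-linked mean), single CMP runs, a replicate block and left-out replicates.

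Members and lists were chosen with earlier results of these data known. Named were 21 textbook members, the 4 smallest genotype p-values per population, up to 6 higher and 6 lower called members per contrast with HSC, and the 2 smallest p-values of the genotype F test. Members named besides these were chosen after their values were seen.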

Additional observations from a re-analysis of the deposited data

Results flagged for a closer look

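In groups of 4 to 8 replicates, a replicate was picked out where its gap to the nearest other value, as a share of the group's range, passed Dixon's 95% limit. Of 368 such groups of the 46 named members, 29 (7.88%) had one, where chance picks about 1 in 20. All values are log2 intensities.

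Wild-type GMP replicate 1, with a 3' to 5' difference of 4.70, accounted for 5: Hspa5 (9.999, the others 12.45 to 13.01), Hspa13 (7.33, others 8.50 to 8.86), Hspa2 (4.21, others 5.35 to 5.54), Dnaja3 (8.79, others 7.63 to 7.78) and Dnajc15 (9.63, others 9.04 to 9.17). Mll-AF9 CMP replicate 3, with the highest proliferation list, accounted for 5: Cct7 (11.53, others 10.80 to 10.89), Dnajc9 (9.36), Hsp90b1 (9.84, others 8.86 to 8.89), Hspa9 (11.44) and Hspa8 (13.07, below the others). Mll-AF9 CLP replicate 3 had 4, all low: Dnajb2 (4.44, others 6.11 to 7.09), Dnajc15 (6.42), Dnajc21 (4.49, others 6.10 to 6.76) and Dnajc25 (4.08). Mll-AF9 HSC replicate 2 had 3: Hspb11 (4.60, others 6.76 to 7.50), Dnajb9 (8.21, others 9.71 to 10.18) and Cct7 (11.24).

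The stress-inducible genes gave Hspa1b in wild-type GMP replicate 3 (9.85, others 6.10 to 7.12) and Hspa1a in wild-type CMP replicate 3 (6.17, others 4.15 to 4.67). Among HSC replicates, Dnajb14 was low in Mll-AF9 replicate 3 (3.64), Dnajc9 in wild-type replicate 1 (6.84), Dnajb1 in wild-type replicate 5 (10.90), Dnajc12 in wild-type replicate 3 (5.91) and Dnajc5 in Mll-AF9 replicate 5 (9.96), and Dnajc4 was high in wild-type replicate 2 (6.68). The others lay close to their groups: Cct6a (11.75) and Dnajb4 (7.88) in wild-type CMP replicate 5, Hspa8 in wild-type CMP replicate 3 (13.22) and Dnajb1 in Mll-AF9 GMP replicate 1 (10.34).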

How the results depend on the processing

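The count of 0 members in each genotype comparison and in the F test of the genotype effect held in all alternatives run, left-out replicates included. Counts of GMP minus HSC stayed at 24 to 29 in wild type and 23 to 30 in Mll-AF9 (21 to 28 without 1 replicate), and those of CMP minus HSC at 16 to 26 and 14 to 22 (10 to 22 without 1 replicate, 14 in wild type without HSC replicate 1). The replicate block gave 1 member in wild-type CLP minus HSC where there had been 0, gave 26 and 21 for wild-type GMP and CMP minus HSC, and moved no other count by over 1.5 times. Mll-AF9 CLP minus HSC, 3 members, became 1 with the probe set of highest variance or the mean of all probe sets, 0 with the 3' to 5' covariate or with only the samples compared, 6 without replicates of a 3' to 5' difference above 4, and 1 to 4 without 1 replicate. Mll-AF9 CMP minus GMP, 24 members, became 38 with only the samples compared and 14 to 22 without 1 replicate (15 without GMP replicate 3). Mll-AF9 CMP minus CLP, 20 members, became 13 with the 3' to 5' covariate and 13 to 22 without 1 replicate. The cause was not tested.

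Turns of direction came mostly from another probe set of the gene. For GMP minus HSC in wild type, the probe set of highest variance gave Dnajb4 0.39, Dnajc1 0.14, Hspa8 −0.65 and Hsp90aa1 −3.10, and the mean of all probe sets Hsp90aa1 −1.001 and Hspa5 0.62. Hspa5 gave 0.51 without replicates of a high 3' to 5' difference and −0.30 to 0.45 without 1 replicate, the highest without GMP replicate 1. In Mll-AF9 the probe set of highest variance gave Cct3 0.17, Dnajc1 1.41, Dnajc6 0.24, Hsp90aa1 −3.03 and Hspa13 −1.84, and the mean Dnajc1 0.059 and Hsp90aa1 −1.02. For Mll-AF9, that choice also gave Dnajc21 −0.57 (CMP minus HSC), Cct4 −0.052 (CLP minus HSC) and Dnajb1 −0.021 (CMP minus GMP). Of 344 named values, 97 were called, and 36 of these kept call and direction throughout. The comparisons of CMP with GMP and CLP, the limit on the 3' to 5' difference and the fit over all probe sets were added after the data were seen.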
